A study of Mus musculus with 10 samples.

Results

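Open chromatin around 6 interferon regulatory factor (IRF) genes, Irf1, Irf2, Irf4, Irf5, Irf7 and Irf9, was compared across progenitor cells of mouse bone marrow. Peaks from the 10 libraries on the autosomes and chromosome X that shared 1 bp or more were joined into merged regions, and a merged region was taken for a gene when its centre lay inside the gene's mm10 span or within 50 kb of it. This gave 101 of 114366 merged regions. A library counted as detecting a region when any of its peaks touched it. Chromatin was assayed by ATAC-seq, in which a transposase cuts and tags accessible DNA, with 2 libraries in each of 5 groups. The groups were monocyte-dendritic cell progenitors (MDP) deficient in IRF8 (IRF8KO MDP), and 4 wild-type (WT) stages. These were LT-HSC, the long-term stem cells of the blood, LMPP, multipotent progenitors with a lymphoid bias, MDP, and the common dendritic cell progenitors (CDP). All cells came from C57BL/6 mice and were enriched magnetically before flow sorting, with 5000 to 7200 cells per library. The sort took Lin- CD117+ Sca-1+ CD135- CD48- CD150+ cells as LT-HSC, Lin- CD117+ Sca-1+ CD135+ cells as LMPP, Lin- Sca-1- CD117+ IL-7R- CD115+ cells as MDP of both genotypes, and as CDP the CD117int CD115+ CD135+ cells that were Lin-, Sca-1- and IL-7R-. The labels give no age and no allele for the IRF8 deficiency, and they do not say which animals a library came from, so the spread between the 2 libraries of a group may be technical.

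IRF proteins share an N-terminal DNA-binding domain that reads GAAA-rich elements, and the genes named here divide the family's tasks. Irf1 is induced by interferon gamma and activates its targets, while Irf2 binds the same elements and was first described as the antagonist of Irf1. Irf4 is the closest relative of Irf8, and both pair with the ETS factor PU.1 on composite ETS-IRF elements. Irf5 and Irf7 act downstream of Toll-like receptors, and Irf7 drives type I interferon production in plasmacytoid dendritic cells. Irf9 is a DNA-binding part of the complex with STAT2 that forms below the type I interferon receptor. Irf8 itself directs progenitors toward monocytes and dendritic cells.

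Promoter sequences are shown for 4 of the genes, because the regions over the starts of Irf1 and Irf2 held matches to interferon-related motifs and those over the starts of Irf5 and Irf7 stood near the top of the peak list in CDP and well below it in IRF8KO MDP. They are from RefSeq on GRCm38.p6, the assembly of mm10, run 5′ to 3′ on the gene's own strand, and hold 250 bases before and 50 bases from the start site on. Capitals mark matches on either strand to the interferon-stimulated response element (ISRE, GAAA and GAAA with NN between them), the ETS-IRF composite (GGAA and GAAA with NN between them), the STAT element (GAS) TTCNNNGAA and the AP-1 element TGANTCA.
Irf1 promoter, chr11:53769764-53770063, plus strand: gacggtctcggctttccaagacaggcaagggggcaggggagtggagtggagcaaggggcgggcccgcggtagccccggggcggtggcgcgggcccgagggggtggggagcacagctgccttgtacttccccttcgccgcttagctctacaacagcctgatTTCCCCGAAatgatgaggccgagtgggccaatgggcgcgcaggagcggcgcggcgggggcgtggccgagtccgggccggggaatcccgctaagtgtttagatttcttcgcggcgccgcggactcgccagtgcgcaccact
Irf2 promoter, chr8:46739495-46739794, plus strand: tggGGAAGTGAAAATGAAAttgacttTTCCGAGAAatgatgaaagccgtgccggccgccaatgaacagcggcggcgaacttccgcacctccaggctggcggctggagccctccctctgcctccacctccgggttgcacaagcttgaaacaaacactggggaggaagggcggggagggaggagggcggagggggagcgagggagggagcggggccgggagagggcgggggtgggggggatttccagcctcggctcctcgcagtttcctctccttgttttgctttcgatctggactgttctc
Irf5 promoter, chr6:29526375-29526674, plus strand: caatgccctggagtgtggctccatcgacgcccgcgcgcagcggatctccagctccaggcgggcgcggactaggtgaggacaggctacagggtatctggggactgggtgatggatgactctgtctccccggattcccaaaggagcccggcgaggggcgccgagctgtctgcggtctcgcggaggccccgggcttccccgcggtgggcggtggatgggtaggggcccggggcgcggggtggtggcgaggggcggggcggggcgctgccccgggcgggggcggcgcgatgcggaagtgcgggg
Irf7 promoter, chr7:141266375-141266674, minus strand: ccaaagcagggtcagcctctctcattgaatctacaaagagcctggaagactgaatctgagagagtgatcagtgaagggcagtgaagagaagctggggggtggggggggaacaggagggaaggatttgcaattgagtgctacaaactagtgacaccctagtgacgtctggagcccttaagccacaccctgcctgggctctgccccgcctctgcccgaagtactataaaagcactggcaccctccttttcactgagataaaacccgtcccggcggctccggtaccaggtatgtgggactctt
The Irf1 promoter held 1 GAS match, TTCCCCGAA, starting 90 bases before the start site. The Irf2 promoter held the composite match GGAAGTGAAA from 247 bases before the start site, the ISRE match GAAAATGAAA from 241 bases before it, which overlaps the composite, and the GAS match TTCCGAGAA from 224 bases before it. The Irf5 and Irf7 promoters held none of the 4 motifs, and neither did the Irf4 promoter, the second Irf1 promoter or the 2 Irf9 promoters in the same table. Among 32851 RefSeq promoters of this length, 3.44% held the ISRE, 2.72% the composite, 8.30% GAS and 7.81% AP-1. The kappa B motif, GGG and CC with NNNNN between them, which is not capitalised, was in 50.8% of promoters and in those of all 6 genes, with GGGGAATCCC from 13 bases before the Irf1 start site. A match describes these letters and is not a bound site.

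The libraries differed in depth and in peak number. Total tags were between 4790046 and 10166833, with the 2 CDP libraries the deepest. LT-HSC replicate 1 stood apart with 31325 peaks and 19.32% of tags in peaks, and LT-HSC replicate 2 had 52147 peaks and 38.06%. The 2 IRF8KO MDP lists held 50728 and 54277 peaks, and the other 6 lists between 62130 and 69598. Calls of the 6 genes against LT-HSC are therefore given with their value without replicate 1 where that changes them. Of all merged regions, 42.5% to 45.8% were detected in IRF8KO MDP, 26.4% to 44.3% in LT-HSC and 53.8% to 54.6% in LMPP. The shares were 52.4% to 54.2% in WT MDP and 55.9% to 59.7% in CDP. The marker shares below are to be read against these. Within 50 kb of a list of 8 monocyte-dendritic marker genes, 50.7% to 56.5% of regions were detected in IRF8KO MDP, 13% to 30.4% in LT-HSC, 37.0% to 37.7% in LMPP, 62.3% in WT MDP and 76.8% to 81.9% in CDP. The shares for 8 stem cell genes were 28.3% in IRF8KO MDP, 25.9% to 60.2% in LT-HSC, 64.5% to 69.3% in LMPP, 42.8% to 46.4% in WT MDP and 34.3% to 39.8% in CDP. Lists of 8 lymphoid-primed and 8 common dendritic genes had their highest shares in CDP, 65.8% and 71.7% to 72.8%. Markers of other cell types were not free of peaks in any group, with at most 1 gene of a list at 0. In IRF8KO MDP against WT MDP the shares were 58.6% to 61.2% against 61.2% to 62.1% for neutrophil genes, 40.2% to 42.3% against 53.6% to 54.6% for erythroid genes, 51.5% to 58.4% against 58.4% to 59.4% for B cell genes, 56.2% to 61.3% against 60% to 63.8% for T and NK cell genes and 48% to 51% against 55% to 56% for endothelial and stromal genes. Their part in the results was not tested. Irf8 (31 regions within 50 kb) had 14 and 17 detected regions in IRF8KO MDP, 1 and 5 in LT-HSC, 8 and 9 in LMPP, 22 and 18 in WT MDP, and 24 and 22 in CDP. Peak positions do not show whether the Irf8 coding sequence is deleted, so they do not check the genotype.

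Over the 6 genes together, CDP detected the most regions and LT-HSC the fewest. Of the 101 regions, IRF8KO MDP libraries detected 53 and 60, LT-HSC 30 and 48, LMPP 58 and 61, WT MDP 55 and 64, and CDP 75 and 74. The 2 CDP libraries lay above all 8 others and the 2 LT-HSC libraries below all others, while the IRF8KO MDP, LMPP and WT MDP libraries overlapped. Set against all regions a library detected, the IRF genes held 1.09 and 1.15 regions per 1000 in IRF8KO MDP, 0.994 and 0.947 in LT-HSC, 0.942 and 0.977 in LMPP, 0.918 and 1.03 in WT MDP, and 1.1 and 1.16 in CDP. On that scale LT-HSC lay within the range of WT MDP, and IRF8KO MDP overlapped CDP. The number of detected regions differed over the 5 groups (exact permutation test of the between-group sum of squares over 945 arrangements, p = 0.0127; the smallest possible is 0.00106). The number per 1000 regions did not pass 0.05 (exact permutation p = 0.0561), and neither did the number over the 4 groups without LT-HSC (exact permutation p = 0.114, with 0.00952 the smallest possible). In these bulk samples, fewer cells with a region open and a weaker opening in each cell cannot be told apart.

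The 101 regions were between 501 and 4249 bp wide, with a median of 960 bp against 752 bp over all merged regions. They lay inside a member gene in 29 cases, upstream of one in 35 and downstream in 37. The nearest protein-coding gene was the IRF gene itself for 61 of them. Irf2 had 32 of its 33 regions nearest to itself and Irf1 15 of 17, whereas Irf4 had 7 of 18, Irf5 5 of 8, Irf7 1 of 14 and Irf9 1 of 11. The other Irf4 regions lay nearest to Dusp22 or Exoc2, those of Irf5 to Kcp, and those of Irf7 and Irf9 to genes of crowded neighbourhoods such as Rassf7, Phrf1 and Deaf1, or Dcaf11, Psme1 and Psme2. A region near the limit of 50 kb illustrates the rule: the outermost members lay 49.4 kb from Irf2 and 49.2 kb from Irf7, each in 2 libraries, and the nearest regions left out lay 50.4 kb from Irf9, in 10 libraries, and 50.7 kb from Irf4, in 4 libraries. Of the 101 regions, 25 (24.8%) were detected in all 10 libraries, against 17.0% of all merged regions. These were 7 at Irf2, 7 at Irf9, 5 at Irf7, 3 at Irf1, 2 at Irf4 and 1 at Irf5. Another 15 (14.9%) were in 1 library only, against 19.1% of all regions. None was in both WT MDP libraries and no other, against 0.361% of all regions, and none was in the LT-HSC and LMPP pairs alone, against 2.01%.

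**Figure D1:**
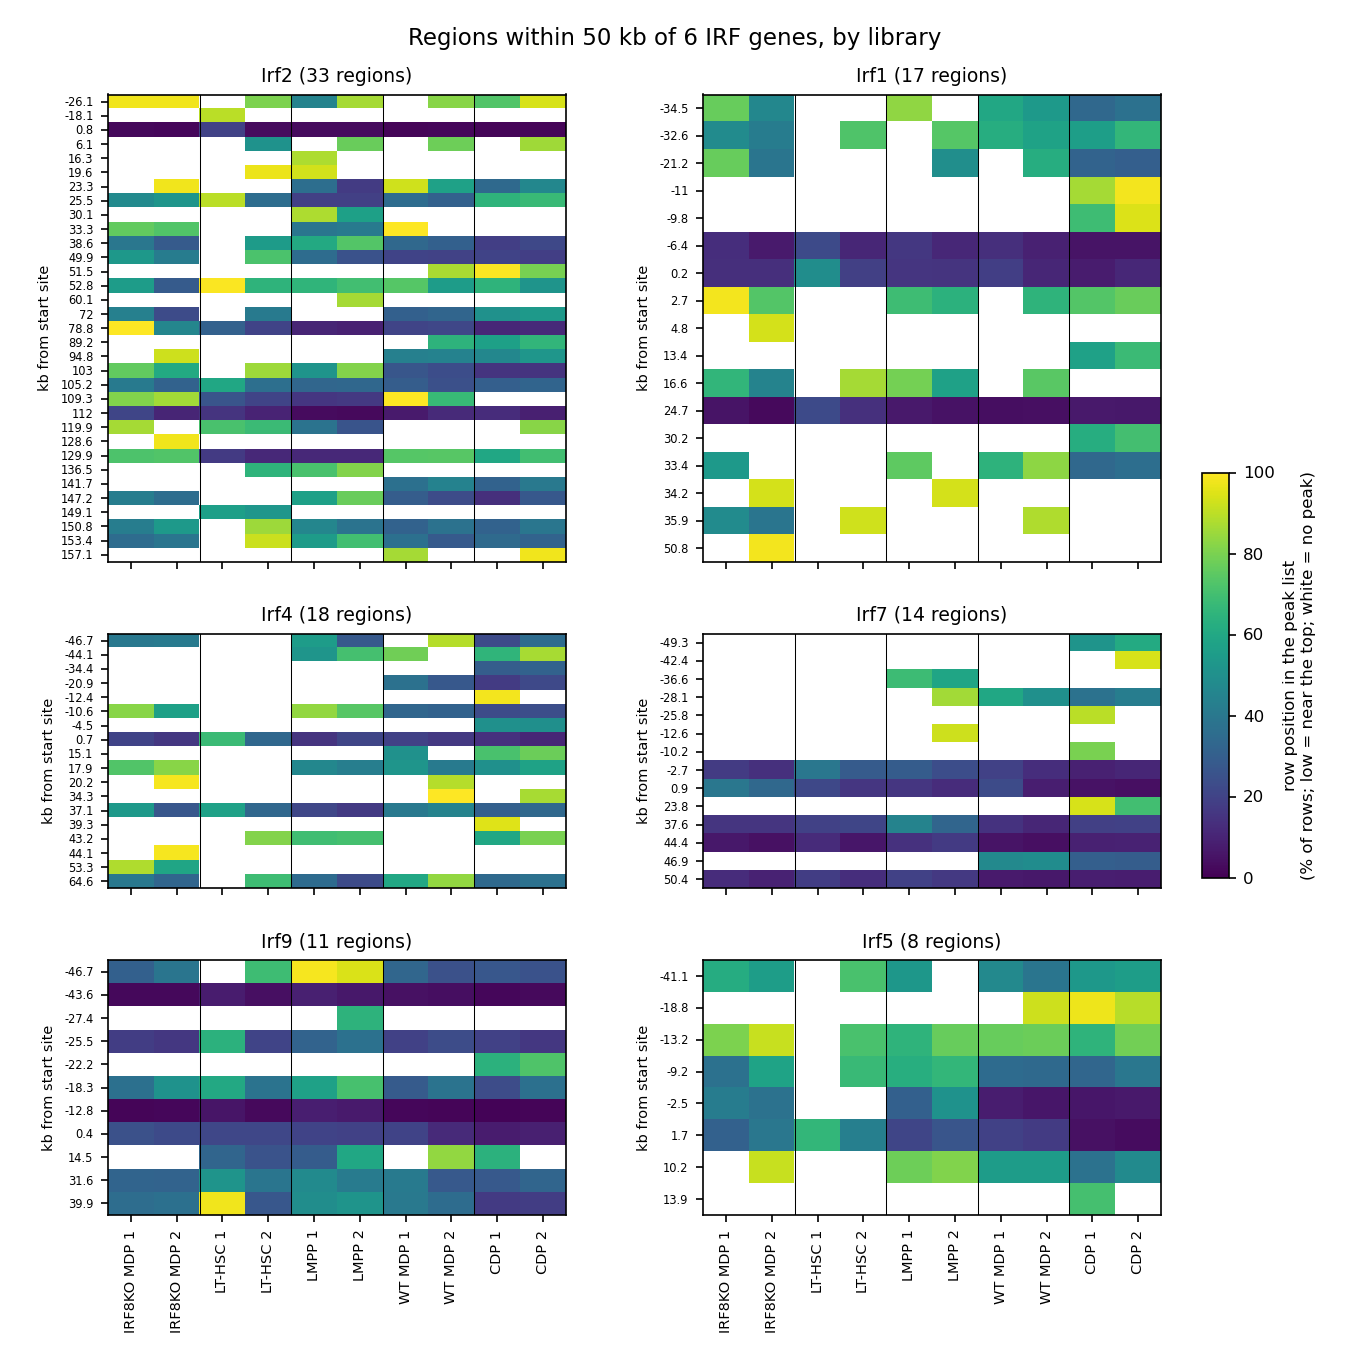
Detection of the 101 regions in the 10 libraries. Each row is a region, labelled by the distance in kb of its centre from the gene's start site, and each column is a library. The colour is the row position, in that library's list, of the region's peak nearest to the top (0% is the top), and white means no peak. The regions over the gene starts are filled in all 10 columns, and the 2 CDP columns hold the fewest white cells at Irf4 and Irf7.

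Irf1 and Irf2 are described first, as the pair that share binding elements. Irf1 (gene 16362, chr11:53770014-53778374, plus strand) had 17 regions. IRF8KO MDP detected 10 and 12 of them, LT-HSC 3 and 6, LMPP 7 and 8, WT MDP 6 and 10, and CDP 12 and 12. The 2 LT-HSC libraries shared the lowest end with 1 WT MDP library, and the IRF8KO MDP libraries reached the level of CDP. The 3 regions present in all 10 libraries were that over the start site (chr11:53768537-53771859) and those 6.4 kb upstream and 24.7 kb downstream of it. Beyond the gene, 4 regions were detected by the CDP pair alone, 11 and 9.8 kb upstream and 13.4 and 30.2 kb downstream of the start. Peaks at these 4 regions stood in the lower part of the CDP lists, and those upstream were the farthest down. The region 11 kb upstream was at 86.7% and 98.4% of the lists, and the region 9.8 kb upstream at 69.0% and 94.9%. The region 13.4 kb downstream (chr11:53783128-53783757) was at row positions of 57.1% and 68.0%, and the region 30.2 kb downstream (chr11:53799909-53800601) at 62.4% and 70.0%, where 0% is the top of the list and rows are taken to run from strong to weak.

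Irf2 (gene 16363, chr8:46739745-46847458, plus strand) is the longest of the 6 genes and had 33 regions, 19 of them inside the gene. IRF8KO MDP detected 18 and 20, LT-HSC 11 and 20, LMPP 22 and 22, WT MDP 20 and 22, and CDP 20 and 23. Apart from LT-HSC replicate 1, the libraries lay between 18 and 23, so the groups overlapped. The number hid changes in which regions were present. The region 149.1 kb downstream of the start (chr8:46888488-46889188) was in both LT-HSC libraries and no other (1 of 101 regions, 0.990%, against 1.30% of all regions). The region 30.1 kb downstream, inside the gene (chr8:46769390-46770289), was in both LMPP libraries and no other, as was 1 region at Irf7 (2 of 101, 1.98%, against 3.78% of all regions). The region 141.7 kb downstream (chr8:46881012-46881830) was shared by the WT MDP and CDP pairs alone. The region 109.3 kb downstream (chr8:46848598-46849571) stood at 80.9% and 86.1% of the IRF8KO MDP lists, 26.4% and 20.4% of the LT-HSC lists, 15.7% and 16.7% of the LMPP lists and 99.7% and 67.4% of the WT MDP lists, and was in neither CDP library. The region over the Irf2 start (chr8:46738936-46742240), which holds the promoter printed above, was the nearest to the top of the list among the 6 gene starts in all 10 libraries. It stood at 2.2% and 1.9% in IRF8KO MDP, 19.9% and 2.9% in LT-HSC, 2.9% and 2.8% in LMPP, 1.5% and 1.7% in WT MDP, and 1.3% and 1.2% in CDP.

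Irf4 (gene 16364, chr13:30749233-30766981, plus strand), the closest relative of Irf8, had 18 regions. IRF8KO MDP detected 7 and 9, LT-HSC 2 and 4, LMPP 8 and 8, WT MDP 8 and 9, and CDP 14 and 13. The 2 CDP libraries lay above all others and the 2 LT-HSC libraries below all others. Only the region over the start (chr13:30748596-30751291) and the region 37.1 kb downstream, nearest to Exoc2, were found in all 10 libraries. The regions 10.6 kb upstream and 17.9 kb downstream were in all 8 libraries other than LT-HSC, a pattern of 4 of the 101 regions (3.96%, against 3.18% of all regions). The region 20.9 kb upstream (chr13:30727692-30728886), nearest to Dusp22, was in both WT MDP libraries, at 37.2% and 27.4%, and in both CDP libraries, at 17.5% and 22.1%, and in no other. The regions 34.4 kb upstream (chr13:30714305-30715360) and 4.5 kb upstream (chr13:30744394-30745076) were in both CDP libraries and no other, at 29.3% and 31.5%, and at 50% and 49.8% of the lists.

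**Figure D2:**
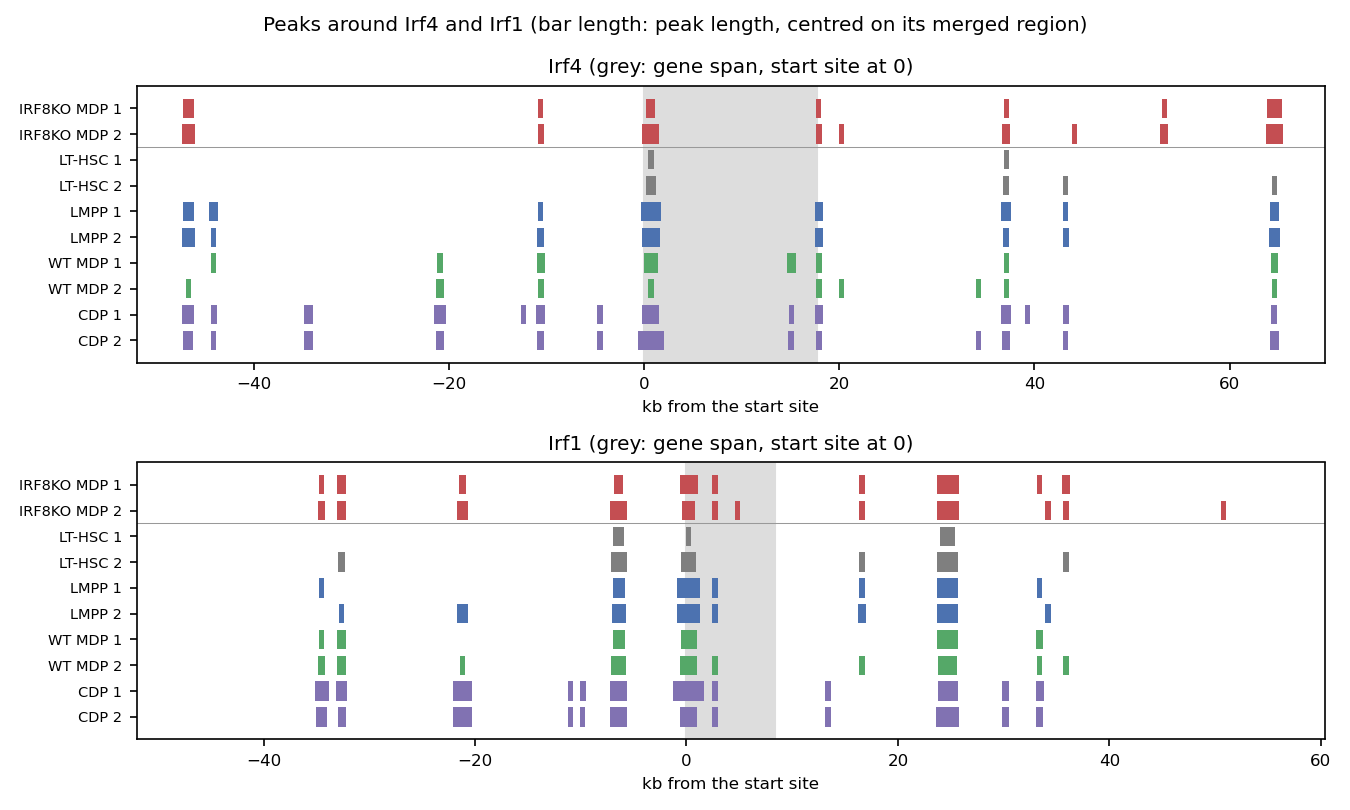
Peaks at Irf4 and Irf1 in each library, by distance in kb from the gene's start site. Each bar has the summed length of the library's peaks in a merged region and is centred on that region, and grey marks the gene span. At Irf4, bars 34.4 and 4.5 kb upstream are in the 2 CDP rows alone, and the bar 20.9 kb upstream is in the WT MDP and CDP rows alone.

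Irf5 (gene 27056, chr6:29526130-29541869, plus strand), which acts below Toll-like receptors, had 8 regions. IRF8KO MDP detected 5 and 6, LT-HSC 1 and 4, LMPP 6 and 5, WT MDP 6 and 7, and CDP 8 and 7. The LT-HSC libraries were the lowest, and the other groups overlapped with their neighbours. The region over the start (chr6:29526201-29530449) was in all 10 libraries. Peak length in it, summed over all peaks of a library there, was 1339 and 1551 bp in IRF8KO MDP and 840 and 1740 bp in LT-HSC. It was 2065 and 1459 bp in LMPP, 1813 and 1555 bp in WT MDP, and 3622 and 3741 bp in CDP. The region's row position was 31.1% and 39.6% in IRF8KO MDP, 66.3% and 43.1% in LT-HSC, 20.9% and 26.3% in LMPP, 19.2% and 17.3% in WT MDP, and 4.3% and 3.2% in CDP. The CDP libraries thus had the largest summed peak length of the 10 and the positions nearest to the top of their lists. A second region 2.5 kb upstream of the start (chr6:29523225-29524964) was in all 8 libraries other than LT-HSC. It stood at 42.1% and 37.5% of the IRF8KO MDP lists, 30.8% and 50.8% of the LMPP lists, 8.0% and 5.9% of the WT MDP lists, and 6.1% and 6.7% of the CDP lists.

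Irf7 (gene 54123, chr7:141263183-141266499, minus strand), the driver of type I interferon in plasmacytoid dendritic cells, had 14 regions. IRF8KO MDP detected 5 and 5, LT-HSC 5 and 5, LMPP 6 and 8, WT MDP 7 and 7, and CDP 11 and 10. The CDP libraries lay above all others, and the IRF8KO MDP and LT-HSC libraries shared the lowest value. The 5 regions in all 10 libraries were the only ones detected in IRF8KO MDP and in LT-HSC. They included the region over the start (chr7:141264085-141266881) and that 2.7 kb upstream, nearest to Cdhr5. The start region was at 39.7% and 33.9% of the IRF8KO MDP lists, 21.8% and 15.8% of the LT-HSC lists, 15.7% and 12.6% of the LMPP lists, 22.8% and 8.5% of the WT MDP lists, and 4.7% and 4.1% of the CDP lists. The IRF8KO MDP peaks were the farthest down their lists and the CDP peaks the nearest to the top.

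Irf9 (gene 16391, chr14:55603985-55610030, plus strand), a DNA-binding partner of STAT2, had 11 regions and varied least. IRF8KO MDP detected 8 and 8, LT-HSC 8 and 9, LMPP 9 and 10, WT MDP 8 and 9, and CDP 10 and 9. All libraries lay between 8 and 10, and 7 of the 11 regions were in all 10 libraries. The region over the start (chr14:55603378-55605393) was at 24.8% and 22.6% in IRF8KO MDP, 21.4% and 21.3% in LT-HSC, 20% and 19.2% in LMPP, 20.1% and 11.9% in WT MDP, and 7.5% and 8.8% in CDP. The region 22.2 kb upstream, nearest to Emc9, was in both CDP libraries and no other.

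**Figure D3:**
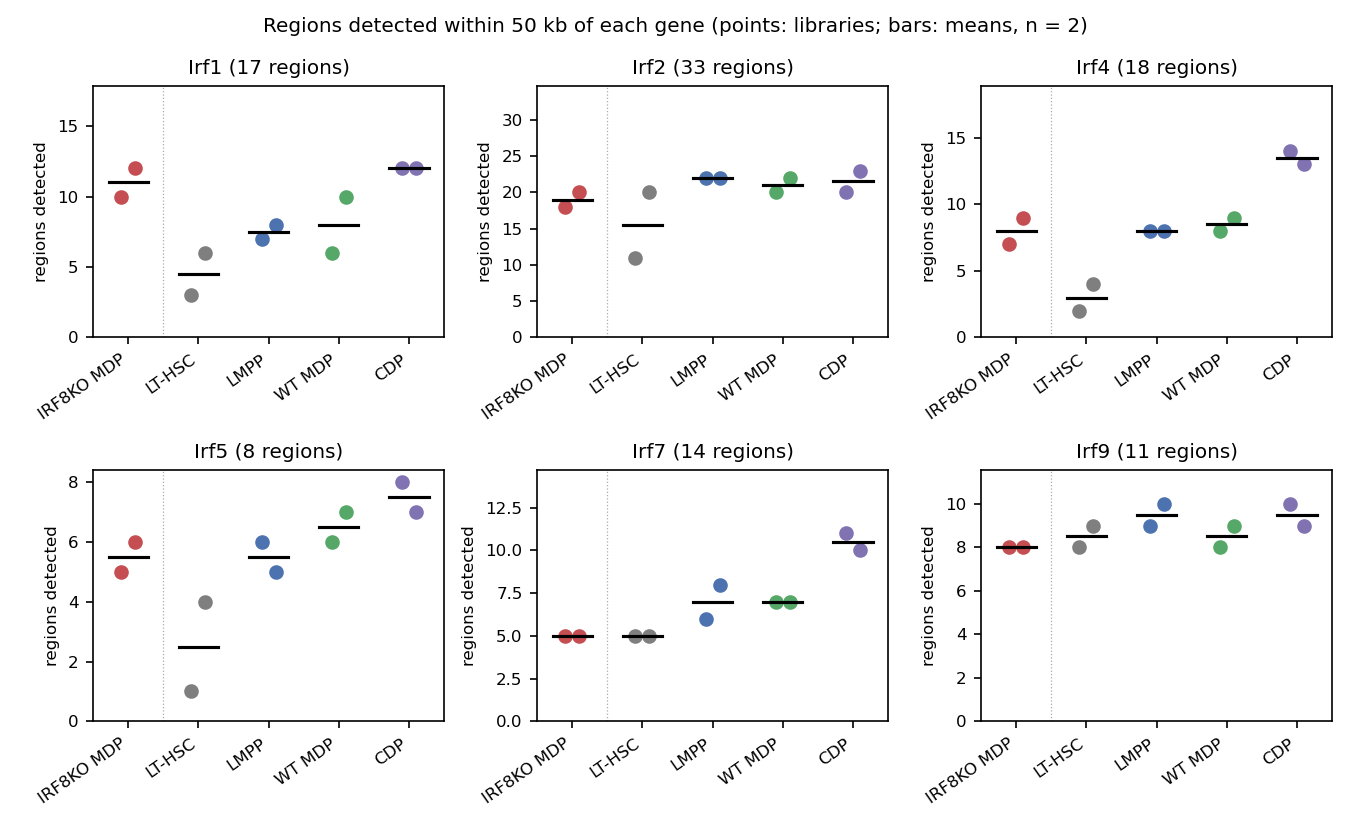
Number of regions detected within 50 kb of each gene, by group. Points are libraries, bars are means of 2 libraries and each vertical axis starts at 0. CDP points are the highest at Irf4 and Irf7, and LT-HSC replicate 1 is the lowest or shares the lowest value in all 6 panels.

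List positions over the gene starts were set side by side only as a description, since the lists differ in length and a position in one list shows no change against another. At Irf1 the start region stood at 13.6% and 13.6% in IRF8KO MDP, 49.2% and 18.9% in LT-HSC, 15.4% and 15.2% in LMPP, 18.6% and 10.9% in WT MDP, and 7.6% and 11.1% in CDP. At Irf4 it stood at 20.1% and 16.4% in IRF8KO MDP, 68.0% and 33.3% in LT-HSC, 15.1% and 20.9% in LMPP, 19.3% and 16.5% in WT MDP, and 14.2% and 10.9% in CDP. At Irf2, Irf4, Irf5, Irf7 and Irf9, but not at Irf1, both CDP positions were nearer the top than those of all 8 other libraries. At Irf2, Irf5, Irf7 and Irf9 both IRF8KO MDP positions were farther down than those of both WT MDP libraries. Over regions found in both replicates, row positions of replicates had Spearman correlations across regions of 0.883 in LT-HSC to 0.946 in CDP.

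**Figure D4:**
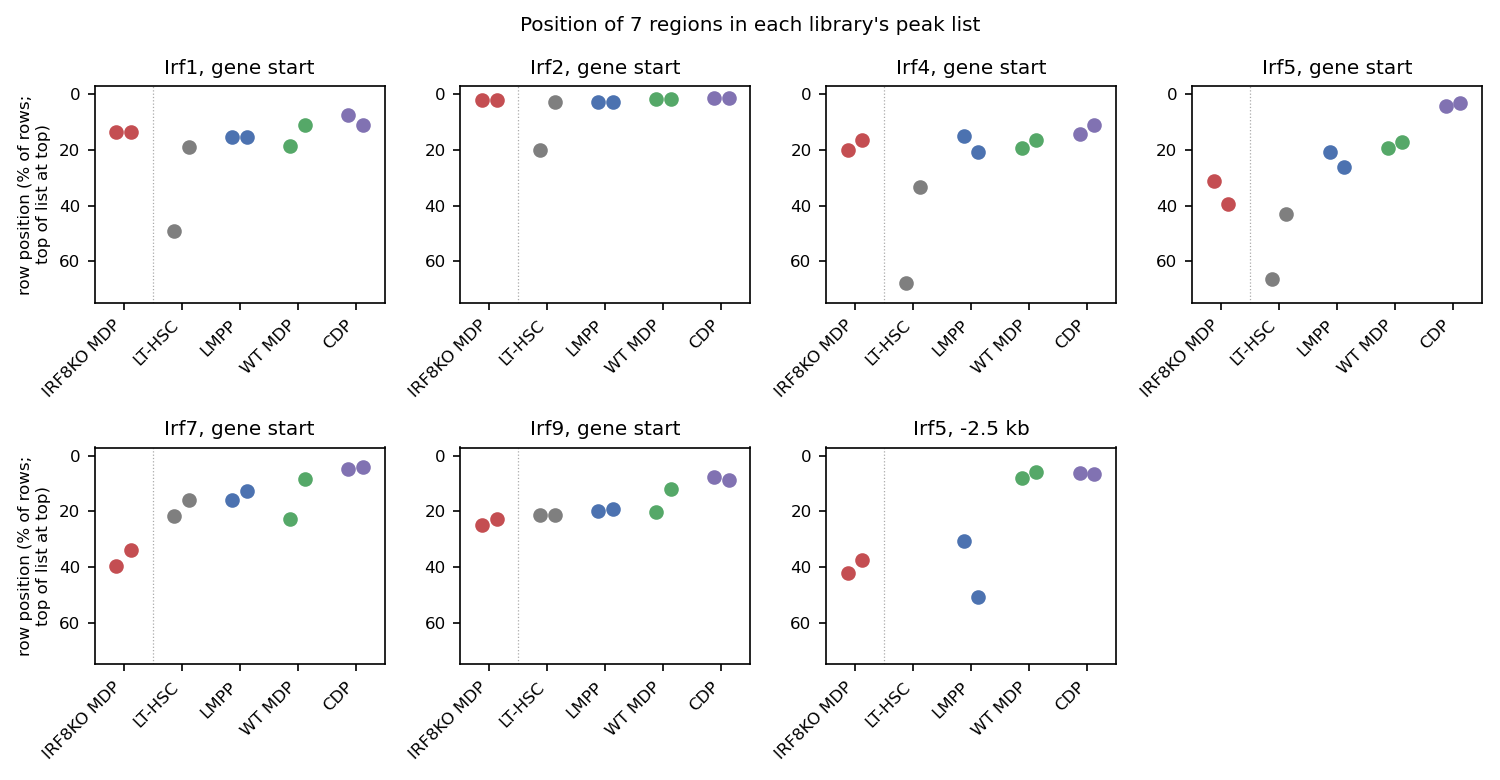
Row position in each library's peak list of the regions over the 6 gene starts and of the region 2.5 kb upstream of Irf5, with the top of the list at the top of the axis. Points are libraries, and a missing point means no peak. At Irf5 the CDP points stand at 4.3% and 3.2%, and at Irf7 the IRF8KO MDP points stand at 39.7% and 33.9%.

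In the comparison of IRF8KO MDP with WT MDP, which asks what the loss of IRF8 does at the same stage, few regions of the other IRF genes changed state. Counting a region as lost when neither IRF8KO MDP library and both WT MDP libraries had it, 4 of 75 regions (5.33%, Wilson 95% interval 2.09% to 12.9%) were lost, against 13.3% of all regions. With the reverse rule, 1 of 75 (1.33%, 0.236% to 7.17%) was gained, against 3.96% of all regions, and 43 of 75 (57.3%) were in all 4 libraries, against 48.2% of all regions. The intervals cover counting error only. The 4 lost regions were those 20.9 kb upstream of Irf4, 141.7 kb downstream of the Irf2 start, and at Irf7 the regions 46.9 kb downstream (chr7:141219047-141219961), nearest to Rassf7, and 28.1 kb upstream (chr7:141293554-141295400), nearest to Drd4. The first 3 of these were in WT MDP and CDP and in no other group (3 of 101 regions, 2.97%, against 3.89% of all regions). The Irf7 region 28.1 kb upstream stood at 59.4% and 50.1% of the WT MDP lists and 37.6% and 42.3% of the CDP lists, and was also in LMPP replicate 2. The gained region, 53.3 kb downstream of the Irf4 start (chr13:30802090-30802887) and nearest to Exoc2, was at 87.9% and 58.9% of the IRF8KO MDP lists and in no other library (1 of 101, 0.990%, against 1.76% of all regions). The lost regions lay between 20.9 and 141.7 kb from the start sites, and none of the 6 gene-start regions was lost or gained. These counts use lists of unequal length. With all lists kept at the length of the shortest, 4 of 49 (8.16%) were lost and 5 (10.2%) gained. The shares of all regions were then 9.97% and 8.22%. With the 4 lists cut to their own shortest, chosen after seeing the data, 4 of 66 (6.06%) were lost and 4 gained. All regions then had 9.62% lost and 7.41% gained.

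Detected regions averaged 56.5 ± 4.95 in IRF8KO MDP and 59.5 ± 6.36 in WT MDP (SD, n = 2 each), a difference of -3 within the spread between replicates (two-sided exact permutation p = 0.667, with 0.333 the smallest possible for 2 against 2). That difference changed sign to 1 when all 4 lists were kept at the length of the shortest, an alternative chosen after seeing the data, and to 0.5 without IRF8KO MDP replicate 1 and 1.5 without WT MDP replicate 2. Gene by gene, limma on the number of detected regions, fitted over all 17895 genes with at least 3 regions, called none of the 6 at an adjusted p of 0.05, against 1.45% of all genes lower and 0.106% higher in IRF8KO MDP. This does not show that the 6 did not differ. Irf7 differed by -2 ± 0.725 regions (SE, adjusted p = 0.187; unadjusted p = 0.0292). Irf1 differed by 3 ± 1.56 regions (SE, adjusted p = 0.341). The Irf1 difference was called at 4.81 when numbers were scaled to each library's peak number (limma adjusted p = 0.0483) and at 4 when all lists were kept at the length of the shortest (limma adjusted p = 0.0151). Lists of equal length also gave Irf2 a called difference of -2.5, lower in IRF8KO MDP (limma adjusted p = 0.0253). Under that setting 836 of 17895 genes were called higher and 780 lower in IRF8KO MDP.

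In the comparison of LMPP with LT-HSC, gained regions outnumbered lost ones at shares near those of all regions. Of 70 regions, 12 (17.1%, Wilson 95% interval 10.1% to 27.6%) were gained and 1 (1.43%) was lost, against 18.5% and 2.37% of all regions. All 4 libraries held 28 (40%), against 33.7% of all regions. With all lists kept at the length of the shortest, 6 of 42 (14.3%) were gained and 2 (4.76%) lost, against 11.3% and 9.12% of all regions. Irf2 and Irf4 gained 4 each, Irf5 2, and Irf1 and Irf7 1 each, while Irf9 gained none. The 5 highest in the LMPP lists were at Irf2 23.3 kb (chr8:46762265-46763761) and 33.3 kb (chr8:46772704-46773483) downstream of the start, at Irf5 2.5 kb upstream, and at Irf4 46.7 kb upstream (chr13:30701916-30703247) and 17.9 kb downstream (chr13:30766586-30767733). The lost region was that 149.1 kb downstream of the Irf2 start. Detected regions averaged 59.5 ± 2.12 in LMPP and 39 ± 12.7 in LT-HSC (SD, n = 2 each), and the groups did not overlap (exact permutation p = 0.333, the smallest possible). The difference of 20.5 was 2.5 with lists of equal length and 11.5 without LT-HSC replicate 1. Irf4 had 5 ± 0.970 more regions in LMPP (SE, limma adjusted p = 0.0261), against 14.2% of all genes called higher and 0.324% lower. Without LT-HSC replicate 1 the Irf4 difference was 4 and was not called (limma adjusted p = 0.0864), and without LMPP replicate 1 or 2 the adjusted p was 0.102 or 0.108. The other 5 genes were not called, with differences of 1 at Irf9 to 6.5 at Irf2.

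In the comparison of WT MDP with LMPP, gains and losses were equal in number over the whole lists, at smaller shares than over all regions. Of 79 regions, 5 were gained and 5 were lost (6.33% each, Wilson 95% interval 2.73% to 14.0%), against 12.9% gained and 13.4% lost over all regions. With all lists kept at the length of the shortest, 13 of 49 (26.5%) were gained and 6 (12.2%) lost, against 14.9% and 15.6% of all regions. Without WT MDP replicate 1 the numbers were 11 and 7. Leaving out a library loosens the rule for every region, and no share of all regions is set beside these 2 numbers. All 4 libraries held 41 (51.9%), against 40.7% of all regions. The gained regions were at Irf2 72 kb (chr8:46811166-46812416), 94.8 kb (chr8:46834134-46835024) and 141.7 kb downstream of the start, at Irf4 20.9 kb upstream and at Irf7 46.9 kb downstream. The lost regions were at Irf2 30.1, 119.9 (chr8:46859090-46860240) and 136.5 kb (chr8:46875903-46876529) downstream, at Irf4 43.2 kb downstream (chr13:30792053-30792891) and at Irf7 36.6 kb upstream (chr7:141302768-141303295). Irf1, Irf5 and Irf9 neither gained nor lost a region under this rule. Detected regions averaged 59.5 ± 6.36 in WT MDP and 59.5 ± 2.12 in LMPP (SD, n = 2 each), a difference of 0 (exact permutation p = 1). That difference was 6.5 with lists of equal length (exact permutation p = 0.333, the smallest possible) and -4.5 to 4.5 when leaving out a library. No member was called by limma, with adjusted p between 0.381 and 1.00, against 8.21% of all genes higher and 5.34% lower in WT MDP.

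In the comparison of CDP with WT MDP, 10 of 85 regions (11.8%, Wilson 95% interval 6.52% to 20.3%) were gained, against 8.80% of all regions. A loss was seen in 1 (1.18%), against 4.94% of all regions, and that was the Irf2 region 109.3 kb downstream of the start. All 4 libraries held 50 (58.8%), against 54.2% of all regions. Irf1 gained 4 regions, Irf4 3, Irf7 2 and Irf9 1. Of the 10, 9 were in both CDP libraries and no other (8.91% of 101 regions, against 4.62% of all regions), and the tenth, 43.2 kb downstream of Irf4, was also in LT-HSC replicate 2 and both LMPP libraries. Apart from the region 34.4 kb upstream of Irf4, at 29.3% and 31.5%, the 9 stood at 49.8% to 98.4% of the CDP lists. Shares gained or in CDP alone with lists of equal length are not set beside these, so they do not set the IRF genes apart. The gained Irf7 region 49.3 kb upstream (chr7:141314965-141316484), nearest to Deaf1, was at 51.6% and 61.2% of the CDP lists. Detected regions averaged 74.5 ± 0.707 in CDP and 59.5 ± 6.36 in WT MDP (SD, n = 2 each), and the groups did not overlap (exact permutation p = 0.333, the smallest possible). The difference of 15 was 5 with all lists kept at the length of the shortest. No gene was called by limma, against 0.749% of all genes higher and 0.156% lower in CDP. Irf4 had 5 ± 0.970 more regions (SE, limma adjusted p = 0.0675), Irf7 3.5 ± 0.725 more (adjusted p = 0.0738) and Irf1 4 ± 1.56 more (adjusted p = 0.232). Leaving out LT-HSC replicate 1 or 2, which enter the shared estimate of spread, left the Irf4 difference at 5. Irf4 was then called, but calls higher in CDP over all genes rose as well, so this does not set Irf4 apart. The CDP libraries also had the most tags, 10166833 and 7985428, against 5394861 and 5328234 in WT MDP, and the part of depth in these gains was not tested on tag counts. With all lists kept at the length of the shortest, Irf1, Irf4 and Irf7 were called higher in CDP, by 3, 2.5 and 1.5 regions (limma adjusted p = 0.0452, 0.0493 and 0.0454), and 870 of all 17895 genes were called higher under that setting.

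**Figure D5:**
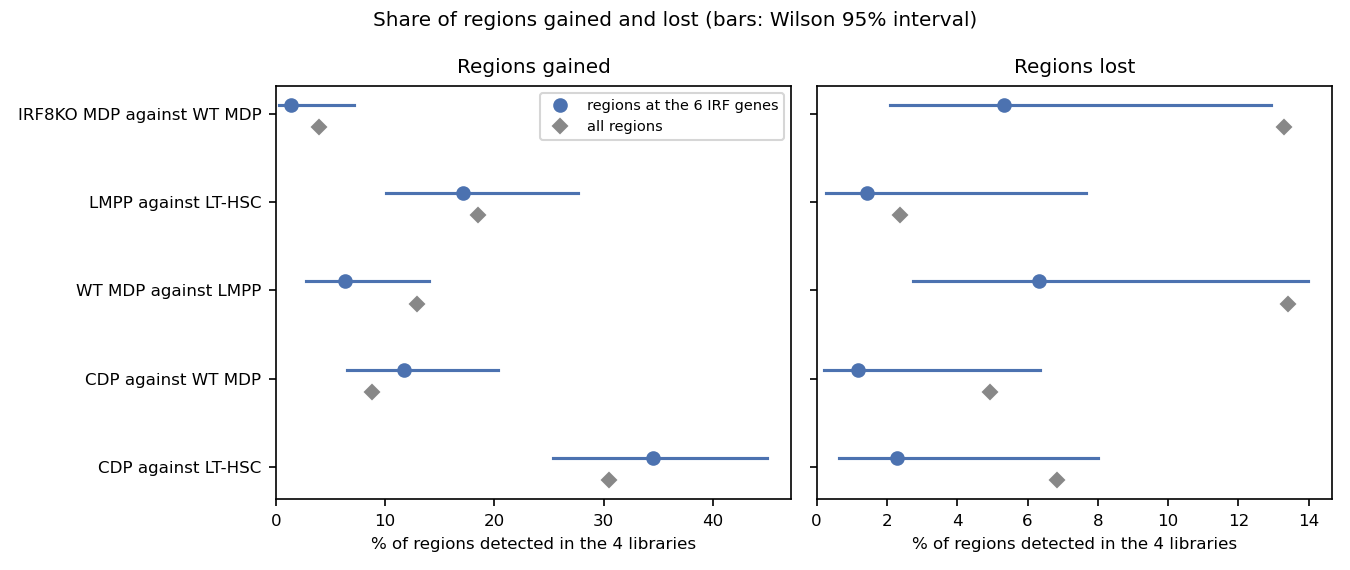
Share of the regions detected in the 4 libraries of a comparison that were gained or lost, as a percent. Circles are the regions at the 6 IRF genes with Wilson 95% intervals and diamonds are all regions. In IRF8KO MDP against WT MDP the IRF genes lost 5.33% of regions, against 13.3% of all regions. With lists of equal length, not drawn, these shares were 8.16% and 9.97%.

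Over the whole path, CDP against LT-HSC, 30 of 87 regions (34.5%, Wilson 95% interval 25.3% to 44.9%) were gained and 2 (2.30%) were lost, against 30.5% and 6.85% of all regions. All 4 libraries held 25 (28.7%), against 24.3% of all regions. Irf1 and Irf4 gained 8 each, Irf2 6, Irf7 4, Irf5 3 and Irf9 1, and both losses were at Irf2, 109.3 and 149.1 kb downstream of the start. The 5 gained regions highest in the CDP lists were 2.5 kb upstream of Irf5, 20.9, 10.6 (chr13:30738145-30739025) and 46.7 kb upstream of Irf4 and 147.2 kb downstream of the Irf2 start (chr8:46885839-46887991). Detected regions averaged 74.5 ± 0.707 in CDP and 39 ± 12.7 in LT-HSC (SD, n = 2 each; exact permutation p = 0.333, the smallest possible). The difference of 35.5 was 14 with lists of equal length. Limma called 4 of the 6 genes higher in CDP, against 50.2% of all genes higher and 3.55% lower. Irf4 had 10.5 ± 0.970 more regions (SE, adjusted p = 0.000862), Irf7 5.5 ± 0.725 more (adjusted p = 0.00184), Irf5 5 ± 1.04 more (adjusted p = 0.00818) and Irf1 7.5 ± 1.56 more (adjusted p = 0.00827). Irf2 differed by 6 ± 2.89 regions (adjusted p = 0.119) and Irf9 by 1 ± 0.719 (adjusted p = 0.269). Without LT-HSC replicate 1, Irf1 was not called (limma adjusted p = 0.0508), and without CDP replicate 1, Irf5 was not (adjusted p = 0.0561). Irf7 was not called on numbers scaled to peak number (difference 1.60, limma adjusted p = 0.283) or within 20 kb (0.5, adjusted p = 0.362), and Irf9 was called lower on the scaled numbers (-4.24, adjusted p = 0.0236) and higher within 100 kb (5, adjusted p = 0.0127).

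Genes around the IRF factors in the same pathways were counted in the same fit. Over all genes, 0.106%, 14.2%, 8.21%, 0.749% and 50.2% were called higher in IRF8KO MDP against WT MDP, LMPP against LT-HSC, WT MDP against LMPP, CDP against WT MDP and CDP against LT-HSC, and 1.45%, 0.324%, 5.34%, 0.156% and 3.55% lower, and the counts below are to be read against these shares. Irf8 had 11.5 ± 1.98 more regions in WT MDP than in LMPP (SE, limma adjusted p = 0.0186) and 20 ± 1.98 more in CDP than in LT-HSC (adjusted p = 0.000975), and Irf3 was not called in any of the 5 comparisons. Among 10 genes of the interferon receptors and the JAK-STAT pathway, 0 were called in IRF8KO MDP against WT MDP, 3 were higher in LMPP than in LT-HSC, 2 were higher in WT MDP than in LMPP, 0 differed in CDP against WT MDP, and 7 were higher in CDP than in LT-HSC. Stat2, the partner of Irf9, had 4.5 ± 1.06 more regions in WT MDP than in LMPP (SE, limma adjusted p = 0.0388). Among 15 sensing genes upstream of the factors, 0, 2, 2, 0 and 10 were called higher in the same 5 comparisons and 0, 0, 1, 0 and 2 lower. Tlr9, the endosomal receptor for CpG DNA, was higher by 4 ± 0.889 in LMPP than in LT-HSC (adjusted p = 0.0324) and by 3.5 ± 0.889 in WT MDP than in LMPP (adjusted p = 0.0472). The call against LT-HSC was lost without any 1 library other than LT-HSC replicate 2 (limma adjusted p = 0.0509 to 0.130), and the difference was -1.04 when scaled to peak number. Among 8 DNA-binding partners and lymphoid factors, 0, 2, 2, 0 and 6 were higher and 1, 0, 0, 0 and 0 lower. The lower one was Spi1, which encodes PU.1, with 5 ± 0.828 fewer regions in IRF8KO MDP than in WT MDP (difference -5, limma adjusted p = 0.0461). With lists of equal length the Spi1 difference was 0, and without any 1 of the IRF8KO MDP, WT MDP, LMPP or CDP libraries it was not called (limma adjusted p = 0.0744 to 0.187). The calls of Irf8, Stat2 and Tlr9 in WT MDP against LMPP were each lost without any 1 of the 4 libraries compared (limma adjusted p = 0.0575 to 0.181). Among 19 interferon-stimulated genes, 0, 0, 2, 0 and 13 were higher and 0, 0, 0, 0 and 1 lower, the last being Ifi44. Without LT-HSC replicate 1, the calls higher in LMPP than in LT-HSC were 1, 0, 0 and 0 in these 4 lists, against 4.31% of all genes, and those higher in CDP than in LT-HSC were 7, 7, 4 and 9, against 32.3% of all genes. With all lists kept at the length of the shortest, the calls in CDP against LT-HSC were 6, 3, 2 and 1 higher and 2, 3, 1 and 3 lower, against 21.3% and 17.8% of all genes. In IRF8KO MDP against WT MDP they were then 1, 0, 0 and 1 higher and 0, 1, 2 and 1 lower, against 4.67% and 4.36% of all genes. Without LT-HSC replicate 1, some interferon-stimulated genes, Ciita, Ifi44, Psmb8 and Tap1, were also called lower in IRF8KO MDP, and calls lower over all genes rose too. The median difference of these 4 lists in IRF8KO MDP against WT MDP was -1.5, -0.5, -1.5 and 0 regions in the order given, against -1 over all genes. In CDP against LT-HSC it was 7.25, 3.5, 5.5 and 3.5, against 2.5 over all genes.

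The genes whose number of regions followed each factor most closely over the 10 libraries, after division by each library's peak number, were Kcnn3 for Irf1 (Pearson r = 0.966), Tmem265 for Irf2 (0.870), Tchp for Irf4 (0.966), Dusp9 for Irf5 (0.98), Ppp4r3b and Rprd1a for Irf7 (0.971 each) and Med15 for Irf9 (0.992). The search covered the genes with at least 5 regions more than 200 kb away, and the libraries share depth and list length, so these values only describe these libraries. The value for Irf2 was the lowest of the 6 and that for Irf9 the highest.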

How the data were processed

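Open chromatin was measured by ATAC-seq in 10 libraries, 2 in each of 5 groups taken from the sample titles. The LMPP titles and sort markers were followed where the cell type field names short-term stem cells. Bowtie 1.1.2 and HOMER 4.9 are named with mm10 and GRCm38, per the submitters' processing notes. Peaks were called by HOMER per library without a control, with peaks of 500 bp set at least 1000 bp apart, a false discovery rate of 0.001, 4-fold enrichment over the local 10000 bp and at most 1 tag per bp, per the file headers. Read shifting for the transposase offset was not given in the sources used here. In the deposited lists the score column holds 1 in every row and was not used as strength. The deposited lists hold positions and no tag counts, so detection was compared, and rows were taken to run from strong to weak, which the lists cannot show.

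Peaks were merged at 1 bp overlap, and genes came from RefSeq on GRCm38.p6 (21631 protein-coding genes). The 6 genes and all lists were chosen with earlier results of these data known. Totals over the 6 genes were compared by two-sided exact permutation tests. The number of detected regions per gene was tested with limma 3.58.1 (R 4.3.3, trended empirical Bayes, 10 libraries, 5 groups) over 17895 genes with at least 3 regions, with Benjamini-Hochberg adjustment and a threshold of 0.05. These numbers are small and discrete, and neighbouring genes share regions. The fit was tested on simulated data, where it recovered lowered genes when the libraries of a group shared a detection rate and failed to when each kept its own, so a missing call is weak evidence. Gained and lost regions were counted without a test, as shares with Wilson 95% intervals that cover counting error only. Regions named are those over each gene start, all those gained or lost in IRF8KO MDP, and for the other comparisons up to 5 gained and 5 lost with the best mean row position. Other regions named, such as those present in all libraries or in CDP alone, were chosen after their values were seen. Of 20 interferon-stimulated genes, 19 matched a symbol. Python 3.11.15, pandas 2.3.3 and scipy 1.17.1 were used. Alternatives were the merge overlap, windows of 20 and 100 kb, lists of equal length, regions nearest to the member gene, numbers scaled to peak number, no minimum of regions, leaving out each library, and the replicate number as a block. Calls of the pathway lists under these settings were added after seeing the data.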

Additional observations from a re-analysis of the deposited data

How the results depend on the processing

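The detected-region totals of LMPP against LT-HSC, CDP against WT MDP and CDP against LT-HSC kept their sign under all alternatives run but shrank to 2.5, 5 and 14 with lists of equal length (20.5, 15 and 35.5 as reported), with leave-one-out differences of 11.5 to 29.5, 10.5 to 19.5 and 26.5 to 44.5. That of IRF8KO MDP against WT MDP, -3, was 0.5 with regions nearest to the member gene only, 1 with lists of equal length within the comparison (chosen after seeing the data) and -7.5 to 1.5 when leaving out a library. The share gained in IRF8KO MDP (1.33%) was 0% within 20 kb, 0% for regions nearest to the member gene and 10.2% with all lists cut to 31325 rows (8.22% of all regions). When leaving out a library it was 2.78% to 10.1% (5.76% and 6.74% of all regions at these ends). The share lost (5.33%) was 0% within 20 kb and 8.16% with lists of equal length (9.97% of all regions). When leaving out a library it was 6.76% to 13.9% (16.3% and 21.2% of all regions at these ends). The lost share of LMPP against LT-HSC was 0% within 20 kb. Lists of equal length moved the gained share of WT MDP against LMPP to 26.5%, the lost share of CDP against WT MDP to 8.16% and the lost share of CDP against LT-HSC to 9.26%, also within the comparison. The lost shares of all regions under that setting are not given beside the last 2, so these do not set the IRF genes apart. When leaving out a library the gained share was 17.4% to 36.8% in LMPP against LT-HSC, 9.33% to 14.3% in WT MDP against LMPP, 14.3% to 20.7% in CDP against WT MDP and 34.9% to 53.0% in CDP against LT-HSC, and the lost share 1.49% to 4.35%, 9.09% to 13.7%, 1.20% to 4.76% and 3.57% to 6.98%. In LMPP against LT-HSC the shares of all regions at these ends were 19.1% and 37.2% gained, and 3.34% and 9.92% lost. For the other comparisons the shares of all regions are not set beside these ranges, so the ranges do not set the IRF genes apart. Gene by gene, 443 values kept direction and call, 19 became 0, 6 left 0 without a call, 22 changed sign (1 of them called, Irf9 in CDP against LT-HSC scaled to peak number, limma adjusted p = 0.0236), 13 gained a call and 7 lost one. Scaled to peak number, the difference in IRF8KO MDP against WT MDP was 1.74 at Irf2, 1.03 at Irf4, 0.117 at Irf5 and 1.06 at Irf9, that in LMPP against LT-HSC was -1.29 at Irf2, -1.04 at Irf7 and -3.76 at Irf9, that in CDP against WT MDP was -0.703 at Irf2, and that in CDP against LT-HSC was -2.78 at Irf2 and -4.24 at Irf9. With lists of equal length it was -2 at Irf9 in LMPP against LT-HSC, 1.5 at Irf2 and 2 at Irf9 in WT MDP against LMPP, and -2 at Irf2 in CDP against WT MDP, and Irf5 was called higher in WT MDP than in LMPP (2.5, limma adjusted p = 0.00323). Within 20 kb it was -1 at Irf1 in WT MDP against LMPP and -0.5 at Irf9 in CDP against LT-HSC, and within 100 kb -2.5 at Irf1 and 1.5 at Irf9 in WT MDP against LMPP. When leaving out a library it was -1.5 to 2.5 at Irf1 in WT MDP against LMPP, -1 to 2 at Irf2 in CDP against WT MDP and -1.5 to 0.5 at Irf4 in IRF8KO MDP against WT MDP. Without LT-HSC replicate 2, Irf2 and Irf5 were called in LMPP against LT-HSC and Irf2 in CDP against LT-HSC. LT-HSC replicate 1 then stood alone, with 11 regions at Irf2 and 1 at Irf5, against means of 22 and 5.5 in LMPP. Over all genes, this setting also called the most genes higher of all settings in both comparisons. The cause of these changes was not tested.

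Over all genes, the calls ranged from 1 to 836 higher (19 as reported) and 20 to 1429 lower (260) in IRF8KO MDP against WT MDP, 326 to 7394 (2550) and 9 to 1934 (58) in LMPP against LT-HSC, 81 to 2597 (1470) and 63 to 1795 (955) in WT MDP against LMPP, 23 to 883 (134) and 0 to 621 (28) in CDP against WT MDP, and 3207 to 11195 (8976) and 298 to 3336 (635) in CDP against LT-HSC. The count of 0 came from limma without CDP replicate 1. Same-numbered libraries did not deviate together in detected regions (correlations across genes of -0.126 to 0.139 over 10 pairs of groups). This cannot show whether they were prepared together, so a pairing of samples stays unknown. With the replicate number as a block the limma calls in IRF8KO MDP against WT MDP were 5 higher and 73 lower, and no call of the 6 genes changed. Positions without tag counts limit all results to presence or absence at the caller's threshold, and a comparison of 2 against 2 libraries cannot give an exact p below 0.333.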
